A study of Mus musculus with 8 samples.

Results

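Fc receptors bind the constant region of antibodies, and 8 mouse genes of this group were followed across dendritic cell progenitors: Fcgr1, Fcgr3, Fcgr4, Fcgr2b, Fcer1g, Fcer1a, Fcgrt and the receptor-like gene Fcrla. A gene was measured where the array's annotation gave its symbol alone to a probe set, and the probe set with the highest mean over all arrays was used. That left 7 of the 8 genes, among 19938 genes tested in all. Fcgrt, the heavy chain of the receptor that recycles immunoglobulin G, was not matched to a probe set and was not analysed here.

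Messenger RNA was measured on Affymetrix gene arrays in cells sorted from mouse bone marrow, with 2 arrays for each of 4 groups and 8 arrays in all. The stated aim was to obtain expression signatures of dendritic cell progenitors and their order in development. One stage, the CDP (common dendritic cell progenitor), and another that the labels call pre-CD8 without defining it were each split into an Id2-GFP- and an Id2-GFP+ fraction. The marker is green fluorescent protein translated from the Id2 transcript behind an internal ribosome entry site, so the groups differ by reporter fluorescence and by stage. Titles of all 8 samples name an Id2-GFP fraction without naming a mouse line, while sources and descriptions name the Id2-IRES-GFP mouse. The genotype field names heterozygous Id2-IRES-GFP mice for 2 samples, both Id2-GFP- CDP, and heterozygous Zbtb46-GFP mice for the other 6. In every comparison with Id2-GFP- CDP, a difference of group and a difference of the recorded genotype cannot be told apart. No treatment separated the groups, and all cells were sorted into medium that held Flt3 ligand conditioned medium. The labels give no sort gate, age or number of animals, and nothing in them states whether replicates were separate animals. So the p-values cover the spread between these arrays alone, and that spread may be technical.

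Activating Fc receptors signal through a short chain with an immunoreceptor tyrosine-based activation motif (ITAM), which in myeloid cells is the product of Fcer1g. Fcgr1 encodes the high-affinity immunoglobulin G receptor (CD64), Fcgr3 and Fcgr4 encode further activating receptors, and Fcgr2b encodes the inhibitory receptor (CD32), whose own tail recruits the phosphatase encoded by Inpp5d. Antibodies to CD16 and CD32 bind the products of Fcgr3 and Fcgr2b together and are widely used to gate myeloid progenitors in marrow. Fcer1a encodes the immunoglobulin E binding chain of mast cells and basophils. Fcrla encodes a related protein that stays inside the cell and is best known from B cells.

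Promoter sequence was examined because several of these genes differed between the same groups of cells. The windows shown hold a shared stretch close to the annotated start site, and run from 90 bases before to 20 bases after it, 5′ to 3′ on the gene's strand. They come from RefSeq on mouse build GRCm38.p6, at chr3:96293950-96294059 on the minus strand for Fcgr1, chr1:171018836-171018945 on the plus strand for Fcgr4, chr1:170927564-170927673 on the minus strand for Fcrla and chr1:171059384-171059493 on the minus strand for Fcgr3. Capitals mark the 13-letter match to TTCCTCTNTTCTA (N is the letter that differed between the 3 genes) in Fcgr1, Fcgr4 and Fcrla, and the 6 letters TTCCTC in Fcgr3.
Fcgr1: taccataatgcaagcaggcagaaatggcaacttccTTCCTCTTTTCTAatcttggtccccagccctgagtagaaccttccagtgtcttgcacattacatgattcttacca
Fcgr4: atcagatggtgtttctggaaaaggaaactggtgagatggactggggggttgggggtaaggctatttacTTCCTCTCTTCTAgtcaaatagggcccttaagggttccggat
Fcrla: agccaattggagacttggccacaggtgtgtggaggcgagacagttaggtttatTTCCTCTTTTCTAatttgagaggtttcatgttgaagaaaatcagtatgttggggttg
Fcgr3: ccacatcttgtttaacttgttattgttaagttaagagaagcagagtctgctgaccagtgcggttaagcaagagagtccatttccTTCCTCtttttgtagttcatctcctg

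The 13-letter match began 55 bases before the start site in Fcgr1, 37 in Fcrla and 22 in Fcgr4. Both motifs were written down after these promoters had been read, so their presence in the 4 genes is a description. Of 32851 promoters of 300 bases (250 before to 50 after the start), 14.7% held TTCCTC on the gene's strand and 28.3% on either strand. TTCCTCTNTTCTA, which contains TTCCTC, occurred in 7 promoters (0.0213%) on the gene's strand and in 11 (0.0335%) on either strand. Fcgr3 has 2 promoters in the table, with TTCCTC at 6 or 15 bases before the start. Fcer1a held TTCCTC on the opposite strand, 216 bases before its start, and neither motif matched in the windows of Fcgr2b, Fcer1g and Fcgrt. The letters TTCC, read GGAA on the other strand, are the core bound by ETS family factors such as PU.1. The other promoters with the 13-letter motif belong to Clec4d, Krt14, Pla2g2d, Tshb, Vav2 and 3 predicted genes. Clec4d, a C-type lectin receptor of myeloid cells, differed by log2 0.43 between Id2-GFP+ and Id2-GFP- CDP (adjusted p = 0.992) and by 0.13 in pre-CD8 (0.962). Vav2, an exchange factor of receptor signalling, differed by 0.04 (adjusted p = 1) and 0.46 (0.366). Of the 8 named genes with this motif, Fcrla passed the threshold in these comparisons. The motif was written from Fcrla, Fcgr1 and Fcgr4, so calls of these 3 genes are no test of it. None of the other named genes passed without a block, where 0.597% of all genes were called higher in CDP and 3.57% in pre-CD8. Under the array set block, Fcgr1 and Fcgr4 also passed in both and Vav2 in pre-CD8 (adjusted p = 0.0144). That block called 3.69% of all genes higher in CDP and 11.0% in pre-CD8. The 3 predicted genes were not analysed here.

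**Figure D1:**
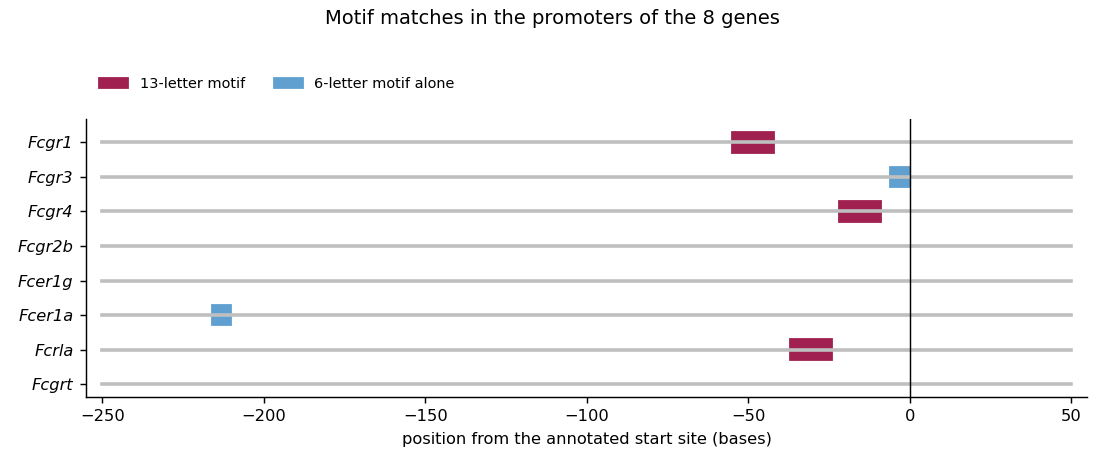
Positions of the motif matches in the promoters of the 8 genes, in bases from the annotated start site (x axis, 0 is the start), for the 13-letter motif (dark) and the 6-letter motif alone (light), with 1 of the 2 Fcgr3 promoters drawn, the one whose match begins 6 bases before the start. The dark boxes of Fcgr1, Fcgr4 and Fcrla lie between 55 bases before the start and the start itself, and the Fcer1a match lies 216 bases before it.

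Median log2 intensity lay between 6.12 and 6.27 on the 8 arrays, and r between replicates, over genes, was 0.984 to 0.989. Arrays of different groups ran from 0.954 to 0.9918, the highest being the pairs of Id2-GFP+ CDP and Id2-GFP+ pre-CD8 arrays within each brightness set (0.9918 and 0.9897). Mean intensity separated the arrays into a brighter and a dimmer set, each with 1 array of every group, and this set was tried as a block. The labels do not name such a set. It was read from the same intensities that the block then adjusts, so calls under this block are no independent check. With Id2-GFP+ cells set against Id2-GFP- cells, Id2 itself was 13.87-fold higher among CDP (adjusted p = 0.0172) and 19.71-fold higher among pre-CD8 (0.00215), and its 4 Id2-GFP+ arrays lay above its 4 Id2-GFP- arrays. Of the genes used to define the CDP, Flt3, Csf1r and Kit had group means of 10.28 to 11.58 in both CDP groups, while Il7r was at 6.06 to 6.69 there and at 10.33 in Id2-GFP- pre-CD8. Clec9a, a marker of CD8+ type dendritic cells, was at 10.16 in Id2-GFP+ pre-CD8 but at 5.88 in Id2-GFP- pre-CD8. It was also high in CDP, at 9.28 in Id2-GFP- and 9.26 in Id2-GFP+ cells. Xcr1, another marker of that type, stayed between 4.61 and 5.66 on all arrays, below each array's median.

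All 7 measured genes had a higher mean in Id2-GFP+ than Id2-GFP- cells at both stages, and more of them passed the test at the pre-CD8 stage. For Fcer1a these differences, 0.33 and 0.12, were smaller than their SE of 0.40. How many of all genes have higher means at both stages was not counted. In CDP, Fcgr3 and Fcrla rose in Id2-GFP+ cells, which made 2 of 7 genes against 0.597% of all genes called higher. In pre-CD8, Fcgr2b, Fcgr3, Fcer1g and Fcrla rose in Id2-GFP+ cells, 4 of 7 against 3.57% of all genes. The median log2 difference of the 7 genes was 0.56 in CDP and 1.48 in pre-CD8, beside medians of 0 and -0.01 over all genes. Within Id2-GFP- cells, Fcgr2b and Fcer1g fell from CDP to pre-CD8, 2 of 7 against 0.592% of all genes called lower (1.03% were called higher). Id2-GFP- pre-CD8 had the lowest mean of the 4 groups for each of the 7 genes, although for Fcrla it was level with Id2-GFP- CDP. For Fcgr4 the arrays of these 2 groups overlapped. For Fcer1a the Id2-GFP- pre-CD8 arrays overlapped those of every other group. How many of all genes have their lowest mean in Id2-GFP- pre-CD8 was not counted either.

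Fcgr3, an activating immunoglobulin G receptor, had the widest span of the measured genes, with group means log2 3.04 apart. Its log2 levels were 7.13 and 6.83 on the Id2-GFP- CDP arrays, 8.53 and 9.23 on the Id2-GFP+ CDP arrays, 5.88 and 5.81 on the Id2-GFP- pre-CD8 arrays and 7.88 and 7.96 on the Id2-GFP+ pre-CD8 arrays. No group overlapped another, and all 4 Id2-GFP+ arrays lay above all 4 Id2-GFP- arrays. The log2 difference by reporter was 1.90 ± 0.25 in CDP (SE of the fit, 2 arrays against 2, 3.73-fold, adjusted p = 0.0208) and 2.07 ± 0.25 in pre-CD8 (4.2-fold, adjusted p = 0.00292). The difference between these differences, 0.17 ± 0.36, did not pass (adjusted p = 1, 95% interval -0.66 to 1.00). Within the brighter and the dimmer arrays the difference was 2.10 and 1.70 in CDP and 2.08 and 2.07 in pre-CD8. From CDP to pre-CD8, Fcgr3 differed by -1.13 ± 0.25 in Id2-GFP- cells (adjusted p = 0.0874) and by -0.96 ± 0.25 in Id2-GFP+ cells (0.722), and both passed with the array set as a block (0.00098 and 0.0141). Among CDP the call did not survive leaving out Id2-GFP- CDP replicate 1 (adjusted p = 0.114) or 2 (0.151), nor Id2-GFP+ CDP replicate 2 (0.0765). Fcgr3, Fcgr2b and Fcgr4 are close relatives in their antibody-binding parts, and how far their probes respond to each other's transcripts was not tested.

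Markers of granulocytes and monocytes, which carry these receptors, were set beside Fcgr3. Of 8 neutrophil markers, 6 (S100a8, S100a9, Camp, Ltf, Lcn2 and Ngp) rose in Id2-GFP+ CDP and the same 6 rose in Id2-GFP+ pre-CD8, where Mpo fell (2.70% of all genes were called lower). Of all genes, 0.597% were called higher in CDP and 3.57% in pre-CD8. Under the array set block 6 of the 8 rose and 1 fell in CDP, and 7 rose and 1 fell in pre-CD8. That block called 3.69% of all genes higher and 4.17% lower in CDP, and 11.0% and 13.2% in pre-CD8. The summed intensity of the 8 neutrophil markers was 10328 to 17868 in Id2-GFP- CDP, 52644 to 75750 in Id2-GFP+ CDP, 11683 to 13672 in Id2-GFP- pre-CD8 and 38210 to 43749 in Id2-GFP+ pre-CD8. Of 7 monocyte and macrophage markers measured, Fn1 and Lyz2 rose in Id2-GFP+ CDP, and Ccr2 and Lyz2 rose while Csf1r fell in Id2-GFP+ pre-CD8. The array set as a block gave 4 of the 7 higher and 2 lower in CDP, where F13a1 fell by 1.11 and Csf1r fell by 0.70 on the log2 scale (4.17% of all genes were called lower), and 4 higher and 1 lower in pre-CD8. That list summed to 5770 to 7192, 7466 to 10712, 1155 to 1598 and 4286 to 4664 in the same order of groups. Array intensities have no zero, and no marker could be called absent. The part of such cells in the Fc receptor values was not tested, and in bulk RNA more cells of a type and more RNA per cell cannot be told apart.

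Fcgr1, the high-affinity receptor and a marker of monocytes and macrophages, moved less and lay below the array median on 7 of 8 arrays. Its log2 levels were 5.78 and 5.59 in Id2-GFP- CDP, 6.23 and 6.26 in Id2-GFP+ CDP, 5.14 and 5.30 in Id2-GFP- pre-CD8 and 5.59 and 5.66 in Id2-GFP+ pre-CD8. Both Id2-GFP+ CDP arrays were the highest and both Id2-GFP- pre-CD8 arrays the lowest, and the other 2 groups overlapped. The reporter difference of 0.56 ± 0.15 in CDP (adjusted p = 0.345, 95% interval 0.21 to 0.91) and of 0.40 ± 0.15 in pre-CD8 (0.22, 0.05 to 0.75) did not pass. The extremes did differ, since Fcgr1 fell by 1.03 on the log2 scale from Id2-GFP+ CDP to Id2-GFP- pre-CD8 (SE 0.15, adjusted p = 0.00798), a call lost without Id2-GFP- pre-CD8 replicate 1 (0.066). With the array set as a block, both reporter differences passed (adjusted p = 0.0257 and 0.0453).

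Fcgr4, the activating receptor found on neutrophils and monocytes, was dim and uneven between replicates. Its log2 levels were 5.50 and 4.57 in Id2-GFP- CDP, 5.90 and 7.27 in Id2-GFP+ CDP, 5.06 and 4.35 in Id2-GFP- pre-CD8 and 5.44 and 6.11 in Id2-GFP+ pre-CD8. In each group the array of the brighter set gave the higher value, and only Id2-GFP+ CDP replicate 2 rose above its array's median. The Id2-GFP+ arrays lay above the Id2-GFP- arrays within each stage. Differences of 1.55 ± 0.50 in CDP (adjusted p = 0.529) and 1.07 ± 0.50 in pre-CD8 (0.355) did not pass, and within the brighter and dimmer arrays they were 1.76 and 1.33 in CDP and 1.05 and 1.09 in pre-CD8. With the array set as a block they passed, at adjusted p = 0.000414 and 0.000774.

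**Figure D2:**
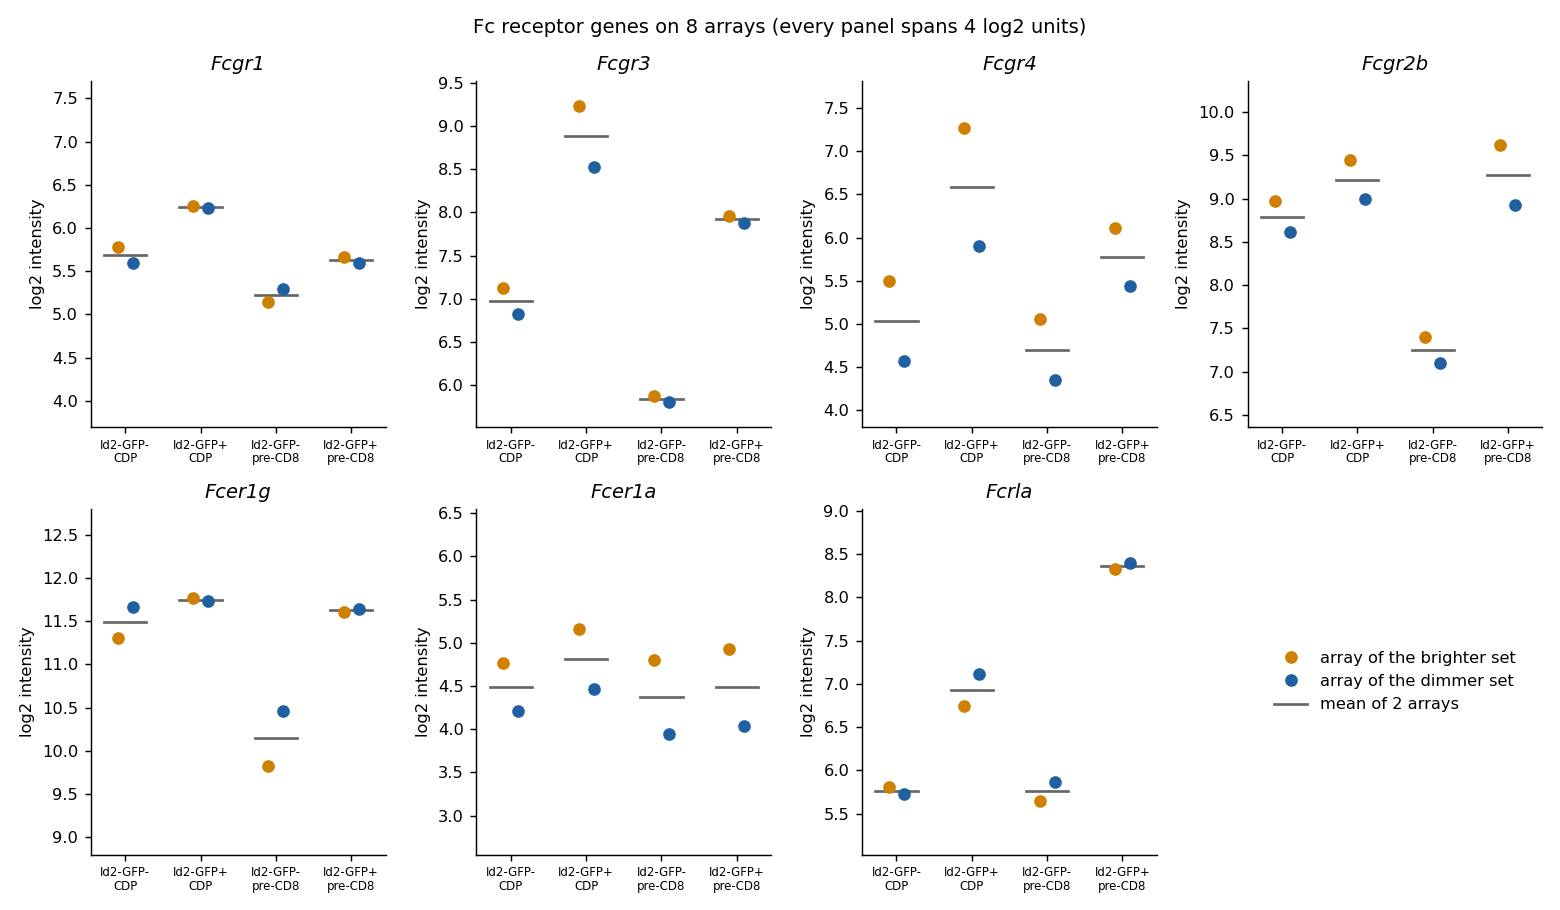
Log2 intensity (y axis) of 7 Fc receptor genes on the 8 arrays by group (x axis), coloured by brighter or dimmer array set, with a line at the mean of 2 arrays. Fcgr3 runs from 5.81 in Id2-GFP- pre-CD8 to 9.23 in Id2-GFP+ CDP, Fcrla stands highest in Id2-GFP+ pre-CD8 at 8.33 and 8.40, and Fcer1a shows its spread within groups rather than between them.

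Fcgr2b, the inhibitory receptor, was low in 1 group only. Its log2 levels were 8.97 and 8.61 in Id2-GFP- CDP, 8.99 and 9.45 in Id2-GFP+ CDP, 7.40 and 7.10 in Id2-GFP- pre-CD8 and 8.93 and 9.62 in Id2-GFP+ pre-CD8. Both Id2-GFP- pre-CD8 arrays lay below the other 6 arrays, and Id2-GFP+ pre-CD8 overlapped both CDP groups. In pre-CD8 Fcgr2b rose by 2.03 ± 0.30 in Id2-GFP+ cells (4.08-fold, adjusted p = 0.0058), with 2.22 in the brighter and 1.83 in the dimmer arrays. In CDP the difference was 0.43 ± 0.30 (adjusted p = 1, 95% interval -0.25 to 1.11). The reporter difference was larger in pre-CD8 than in CDP by 1.60 ± 0.42, which did not pass (adjusted p = 0.297) but did with the array set as a block (0.000536) or a further quantile normalization (0.0253). Within Id2-GFP- cells Fcgr2b fell by 1.54 from CDP to pre-CD8 (SE 0.30, adjusted p = 0.0484). That call was lost without either Id2-GFP- CDP array (adjusted p = 0.307 without replicate 1 and 0.187 without 2), either Id2-GFP- pre-CD8 array (0.124 and 0.281) or either Id2-GFP+ CDP array (0.0518 and 0.0514).

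Fcer1g, the signalling chain shared by the activating receptors, was bright on every array and, like Fcgr2b, lowest in Id2-GFP- pre-CD8. Its log2 levels were 11.31 and 11.66 in Id2-GFP- CDP, 11.73 and 11.77 in Id2-GFP+ CDP, 9.83 and 10.46 in Id2-GFP- pre-CD8 and 11.64 and 11.61 in Id2-GFP+ pre-CD8. Id2-GFP- pre-CD8 lay below the other 6 arrays, while the means of the other groups were within log2 0.26 of each other. In pre-CD8 it rose by 1.48 ± 0.23 in Id2-GFP+ cells (2.79-fold, adjusted p = 0.00758), a call that was lost without Id2-GFP+ pre-CD8 replicate 2 (0.0547). The difference in CDP was 0.26 ± 0.23 (adjusted p = 1, 95% interval -0.26 to 0.79). The 2 reporter differences were 1.22 ± 0.32 apart (adjusted p = 0.309), which passed with the array set as a block (0.00337). Within Id2-GFP- cells Fcer1g fell by 1.34 from CDP to pre-CD8 (SE 0.23, adjusted p = 0.0302), with -1.49 and -1.20 in the brighter and dimmer arrays. That fall no longer passed without Id2-GFP- CDP replicate 1 (adjusted p = 0.0891) or 2 (0.255), Id2-GFP- pre-CD8 replicate 1 (0.12) or Id2-GFP+ pre-CD8 replicate 1 (0.0577) or 2 (0.0562), nor after a further quantile normalization (0.0737) or a fit to these 2 groups alone (0.0996). In the same comparison 4 of 7 monocyte and macrophage markers fell, F13a1, Fn1, Csf1r and Ccr2, against 0.592% of all genes. The part of these markers in this result was not tested.

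Fcer1a, the immunoglobulin E binding chain, was below the array median on all 8 arrays and passed in none of the comparisons. Its levels ran from 3.94 to 5.16, the 4 group means spanned log2 0.45, and the brighter array was the higher in each group. The reporter difference was 0.33 ± 0.40 in CDP (95% interval -0.59 to 1.24) and 0.12 ± 0.40 in pre-CD8 (-0.79 to 1.03), with adjusted p = 1 and 0.998. Of 8 basophil and mast cell markers, Hdc, the histamine-forming enzyme, rose in Id2-GFP+ CDP by 1.92 ± 0.26 (adjusted p = 0.0219), where 0.597% of all genes were called higher. None of the 8 passed in pre-CD8, where the array set as a block gave 2 higher and 1 lower (11.0% and 13.2% of all genes). Ms4a2, which encodes the beta chain of the same receptor, had group means of 3.83 to 4.05. B2m, the light chain that pairs with the product of Fcgrt, had group means of 12.30 to 12.72 and also passed in none of the 7 comparisons. Blocking on the array set, it passed in 4, by reporter at 0.30 in CDP and -0.24 in pre-CD8 (adjusted p = 0.015 and 0.0145), for the change between these (0.00356) and between the Id2-GFP- groups (0.00109).

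Fcrla was highest in Id2-GFP+ pre-CD8. Its log2 levels were 5.81 and 5.72 in Id2-GFP- CDP, 7.11 and 6.74 in Id2-GFP+ CDP, 5.65 and 5.87 in Id2-GFP- pre-CD8 and 8.40 and 8.33 in Id2-GFP+ pre-CD8. The Id2-GFP- groups overlapped, both Id2-GFP+ CDP arrays stood above them, and both Id2-GFP+ pre-CD8 arrays stood above all others. In pre-CD8 it rose by 2.60 ± 0.19 with the reporter (6.08-fold, adjusted p = 0.000524), by 2.69 in the brighter and 2.52 in the dimmer arrays. In CDP it rose by 1.16 ± 0.19 (2.24-fold, adjusted p = 0.0481), a call close to the threshold that was lost without any of the 8 arrays (adjusted p from 0.0869 without Id2-GFP+ pre-CD8 replicate 1 to 0.358 without Id2-GFP- CDP replicate 1). It was also lost after a further quantile normalization (0.0743) and in a fit to the CDP arrays alone (0.0868), and held with the array set as a block (0.00102). Within Id2-GFP- cells the stages differed by 0.00 ± 0.19 (95% interval -0.44 to 0.44). Id2-GFP+ pre-CD8 stood 1.44 ± 0.19 above Id2-GFP+ CDP (adjusted p = 0.108), a difference that passed once the array set was a block (0.000787). The reporter difference was likewise 1.44 ± 0.27 larger in pre-CD8 than in CDP (adjusted p = 0.119, or 0.00174 once the array set was a block).

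Markers of the B lineage, where Fcrla is best known, did not rise with it. Of 7 B-lineage markers measured, 0 rose and 2 fell in Id2-GFP+ pre-CD8, where Ebf1 fell by 2.97 and Vpreb1 fell by 1.14 on the log2 scale (adjusted p = 0.00207 and 0.0252), beside 2.70% of all genes called lower. Under the array set block 4 of the 7 fell, Pax5 and Igll1 besides these (13.2% of all genes called lower). The list summed to 645 to 649 in Id2-GFP+ pre-CD8, below the 979 to 1152 of Id2-GFP- pre-CD8. In CDP none of the 7 passed, and with that block Vpreb1 fell. Of 8 markers of CD8+ type dendritic cells, 3 rose with the reporter in CDP and 6 rose in pre-CD8, against 0.597% and 3.57% of all genes. Under the array set block these became 4 and 7, against 3.69% and 11.0%. Among those called without a block was Batf3, a transcription factor that such cells require, by 1.65 ± 0.23 and 3.04 ± 0.23 (adjusted p = 0.0229 and 0.000537). That list summed to 10395 to 11671 in Id2-GFP- CDP, 14948 to 15090 in Id2-GFP+ CDP, 7804 to 9129 in Id2-GFP- pre-CD8 and 18509 to 23203 in Id2-GFP+ pre-CD8. Its part in the Fcrla values was not tested.

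**Figure D3:**
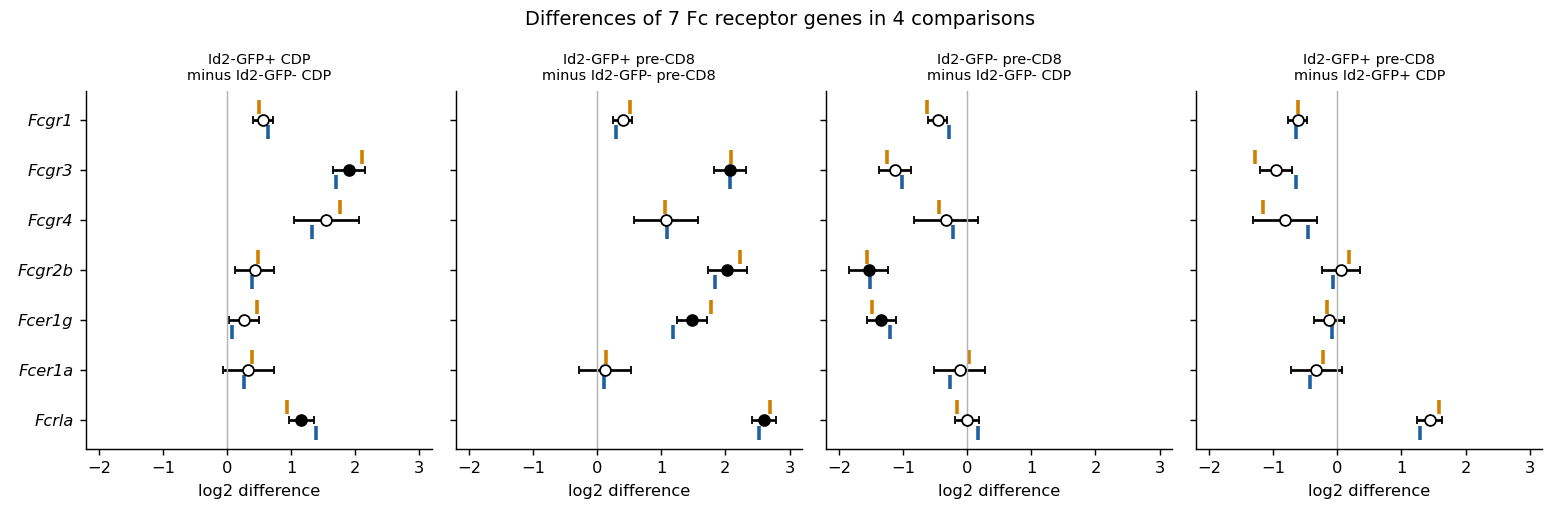
Log2 differences (x axis) of 7 Fc receptor genes in 4 comparisons, with the SE of the fit as bars, filled points past adjusted p = 0.05, and ticks for the difference within the brighter (above) and dimmer (below) arrays. Filled points stand at Fcgr3 and Fcrla in CDP, at Fcgr3, Fcgr2b, Fcer1g and Fcrla in pre-CD8, at Fcgr2b and Fcer1g between the Id2-GFP- groups, and nowhere between the Id2-GFP+ groups.

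Among Id2-GFP+ cells no stage difference passed. Comparing pre-CD8 with CDP there, limma called 0 of 7 Fc receptor genes and 0 of all genes (0%), while 3 of the 7 and 643 of all genes (3.22%) had an unadjusted p under 0.05. With the array set as a block, Fcrla rose (0.973% of all genes called higher) and Fcgr1, Fcgr3 and Fcgr4 fell (1.10% called lower), by 0.62, 0.96 and 0.81 on the log2 scale. Across stage and reporter together, Id2-GFP+ pre-CD8 against Id2-GFP- CDP gave 1 of 7, Fcrla at 2.60 ± 0.19 higher (adjusted p = 0.000887), where 1.39% of all genes were called higher. Id2-GFP- pre-CD8 against Id2-GFP+ CDP gave 5 of 7 lower against 2.81% of all genes, with Fcgr3 at -3.04 ± 0.25 (adjusted p = 0.000906), Fcgr2b at -1.97 ± 0.30 (0.00803), Fcer1g at -1.60 ± 0.23 (0.00708) and Fcrla at -1.16 ± 0.19 (0.0118) beside Fcgr1. Of these, Fcgr2b was lost without Id2-GFP- pre-CD8 replicate 2 (adjusted p = 0.056), and Fcrla without either array of Id2-GFP- pre-CD8 (0.0946 and 0.0503) or without replicate 1 of Id2-GFP+ CDP (0.0584). The test of whether the reporter difference changed between stages called 0 of 7 genes against 0.145% of all, and 3 of 7, against 6.15% of all genes, had an unadjusted p under 0.05. With the array set as a block it called Fcgr2b, Fcer1g and Fcrla, against 4.09% of all genes called higher.

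With that block the reporter counts were larger too. In CDP, Fcgr1, Fcgr3, Fcgr4 and Fcrla rose (4 of 7, against 3.69% of all genes), and in pre-CD8 all but Fcer1a rose (6 of 7, against 11.0%). Between the Id2-GFP- groups, Fcgr1, Fcgr2b, Fcgr3 and Fcer1g fell (4 of 7, against 6.65%). From Id2-GFP- CDP to Id2-GFP+ pre-CD8, Fcgr2b, Fcgr3, Fcgr4 and Fcrla rose (4 of 7, against 6.97%), and all 7 genes were lower at Id2-GFP- pre-CD8 than at Id2-GFP+ CDP (7 of 7, against 9.88%).

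Sorted by pattern rather than by test, the 7 genes fell into overlapping courses. In Fcgr3 and Fcrla, 2 of 7 genes, all Id2-GFP+ arrays lay above all Id2-GFP- arrays, as in 5.42% of all genes. Both Id2-GFP- pre-CD8 arrays were the lowest for Fcgr1, Fcgr2b, Fcgr3 and Fcer1g, 4 of 7 against 8.10% of all genes. Both Id2-GFP+ CDP arrays were the highest for Fcgr1, Fcgr3 and Fcer1g, 3 of 7 against 2.12%. Both Id2-GFP+ pre-CD8 arrays were the highest for Fcrla, 1 of 7 against 4.17%. Over the 8 arrays, which fall into 4 groups and 2 array sets, Fcgr3 correlated with Fcgr1 at r = 0.91 and with Fcgr4 at 0.89, and Fcer1g with Fcgr2b at 0.88, while Fcrla correlated with the other 6 at 0.04 to 0.62.

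The genes that ran most like each Fc receptor gene over the 8 arrays were taken from 1801 genes whose group means spanned at least log2 1. Fcgr3 ran with Hp (haptoglobin, r = 0.994), Ly6a2 (0.994) and Clec5a (a myeloid receptor that signals through Tyrobp, 0.993), and Fcgr1 with Sulf2 (0.97), Ms4a6d (0.951) and Clec5a (0.943). Fcgr4 ran with Adpgk (0.982), Gas7 (0.98) and Pstpip2 (0.973). Fcgr2b stood closest to Kif20b (0.998), Smc2 (0.997) and Kif4 (0.997), which serve chromosome movement and condensation in mitosis. For Fcer1g the list was Cenpp (a centromere protein, 0.99), Gpr183 (an oxysterol receptor, 0.984) and Tyrobp (another ITAM adaptor, 0.983), and for Fcrla it was Batf3 (0.995), Akr7a5 (0.994) and Ptms (0.994). The dim Fcer1a gave Dmxl2 (0.94), H2bc8 (0.908) and Hspa1a (0.903). Such values rest on 8 arrays in 4 groups and 2 array sets, so differences between groups and between sets both enter them. How many genes reach such values was not counted, and they are given as a description. Group means of Fcrla were 5.76 and 6.92 for Id2-GFP- and Id2-GFP+ CDP, then 5.76 and 8.36 for Id2-GFP- and Id2-GFP+ pre-CD8. Those of Batf3, in the same order, were 6.98, 8.63, 7.07 and 10.11.

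Most of these genes lie together on chromosome 1. In the RefSeq gene order, Fcrla, Fcgr2b, Fcgr4, Fcgr3 and Fcer1g follow one another there, with Fcer1a further on, while Fcgr1 is on chromosome 3 and Fcgrt on chromosome 7. The stretch from Fcrla to Fcer1g holds 13 protein-coding genes, of which 11 were measured, these 5 and 6 others (Cfap126, Sdhc, Pcp4l1, Nr1i3, Tomm40l and Apoa2). None of the 6 others was called in any of the 7 comparisons without a block. Their median log2 difference by reporter was -0.04 in CDP and -0.29 in pre-CD8. Pcp4l1 had the farthest values among them, at -0.94 ± 0.40 in CDP (adjusted p = 0.901) and -1.03 ± 0.40 in pre-CD8 (0.24). Once the array set was a block, Pcp4l1 passed in both (0.013 and 0.00183), where 4.17% and 13.2% of all genes were called lower. From Id2-GFP- CDP to Id2-GFP+ pre-CD8 both Pcp4l1 and Tomm40l fell under that block (0.000352 and 0.0276, 8.85% of all genes called lower).

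Other Fc receptor genes gave 1 call by reporter. Of 12 names listed, 11 were measured. In CDP 0 passed, with a median difference of 0.08. In pre-CD8, 1 fell, Fcrl1, a B cell receptor-like gene, by 1.41 on the log2 scale (SE 0.23, adjusted p = 0.00907). The list median there was 0, and 2.70% of all genes were called lower. The highest group mean of Fcrl1 was 8.83, for Id2-GFP- pre-CD8, followed by 7.42 for Id2-GFP+ pre-CD8, 7.07 for Id2-GFP+ CDP and 6.57 for Id2-GFP- CDP. Its fall was lost without Id2-GFP- pre-CD8 replicate 1 (adjusted p = 0.0501) or 2 (0.057) or Id2-GFP+ pre-CD8 replicate 1 (0.0598).

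Receptors that use the Fcer1g chain gave 2 genes that rose in both stages. Of 11 listed, 8 were measured, and the list median was 0.90 in CDP and 0.15 in pre-CD8. The shares of all genes called higher were 0.597% in CDP and 3.57% in pre-CD8. Under the array set block 5 of the 8 rose in CDP, Clec4e, Clec4b2 and Klrb1c being added, against 3.69% of all genes. In pre-CD8 3 of 8 rose, with Clec4b2 added, against 11.0%. Clec4b1, a C-type lectin receptor, rose by 1.49 ± 0.21 in CDP (adjusted p = 0.0229) and by 4.08 ± 0.21 in pre-CD8 (16.97-fold, 0.000161), from a group mean of 3.25 to 7.34. Ncr1, a natural cytotoxicity receptor of NK cells, rose by 1.83 ± 0.18 in CDP (adjusted p = 0.0046) and 1.15 ± 0.18 in pre-CD8 (0.00802). Clec4b1 no longer passed in CDP when either Id2-GFP- CDP array (0.129 and 0.156) or replicate 2 of Id2-GFP+ CDP (0.148) was left out. The pre-CD8 call of Ncr1 was lost without Id2-GFP- pre-CD8 replicate 2 (0.0519) or Id2-GFP+ pre-CD8 replicate 1 (0.0529).

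Signalling genes downstream moved in both directions. Of 20 ITAM adaptors and activating signalling genes listed, 18 were measured, with list medians of 0.16 in CDP and 0.17 in pre-CD8. Beside them, 0.597% of all genes were called higher in CDP and 3.57% in pre-CD8. In CDP 1 of 18 rose, the Src family kinase Fgr, by 2.33 ± 0.38 (adjusted p = 0.045), which no longer passed without any 1 of 6 arrays, namely both of Id2-GFP- CDP (0.406 and 0.0994), both of Id2-GFP+ pre-CD8 (0.0736 and 0.0726), replicate 2 of Id2-GFP+ CDP (0.207) and replicate 1 of Id2-GFP- pre-CD8 (0.0506). In pre-CD8, 2 of 18 rose, Tyrobp by 1.49 ± 0.17 (adjusted p = 0.00224) and Fgr by 2.20 ± 0.38 (0.0122), the latter lost without Id2-GFP- pre-CD8 replicate 1 (0.0741) or Id2-GFP+ pre-CD8 replicate 2 (0.0973). In the same comparison 3 of 18 fell, against 2.70% of all genes, the scaffold Lat by 2.51 (adjusted p = 0.000809), the phospholipase Plcg1 by 1.57 (0.00221) and Cd247, the zeta chain of the T cell receptor, by 0.91 (0.0399), on the log2 scale. The call of Cd247 was lost without either array of pre-CD8 in both reporter groups and without either Id2-GFP+ CDP array (adjusted p up to 0.235, without Id2-GFP- pre-CD8 replicate 2). Blocking on the array set, the balance turned, and in pre-CD8 7 of the 18 rose (Fyn, Gab2, Card9, Bcl10 and Malt1 were added) while 4 fell (Lcp2 was added), against 11.0% and 13.2% of all genes. In CDP 2 rose, against 3.69%. Of 6 inhibitory signalling genes, 0 passed in CDP (median 0.03), and in pre-CD8 (median 0.26) 1 fell, the adaptor Dok2, by 1.67 (adjusted p = 0.0434). Dok2 was lost without Id2-GFP- pre-CD8 replicate 1 (0.235) or 2 (0.0714) or Id2-GFP+ pre-CD8 replicate 1 (0.188) or 2 (0.162). None of the 6 rose without a block. Under the same block the phosphatase genes Ptpn6 and Ptpn11 rose (2 of 6), while Inpp5d, whose product the Fcgr2b product recruits, passed in neither fit by reporter.

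**Figure D4:**
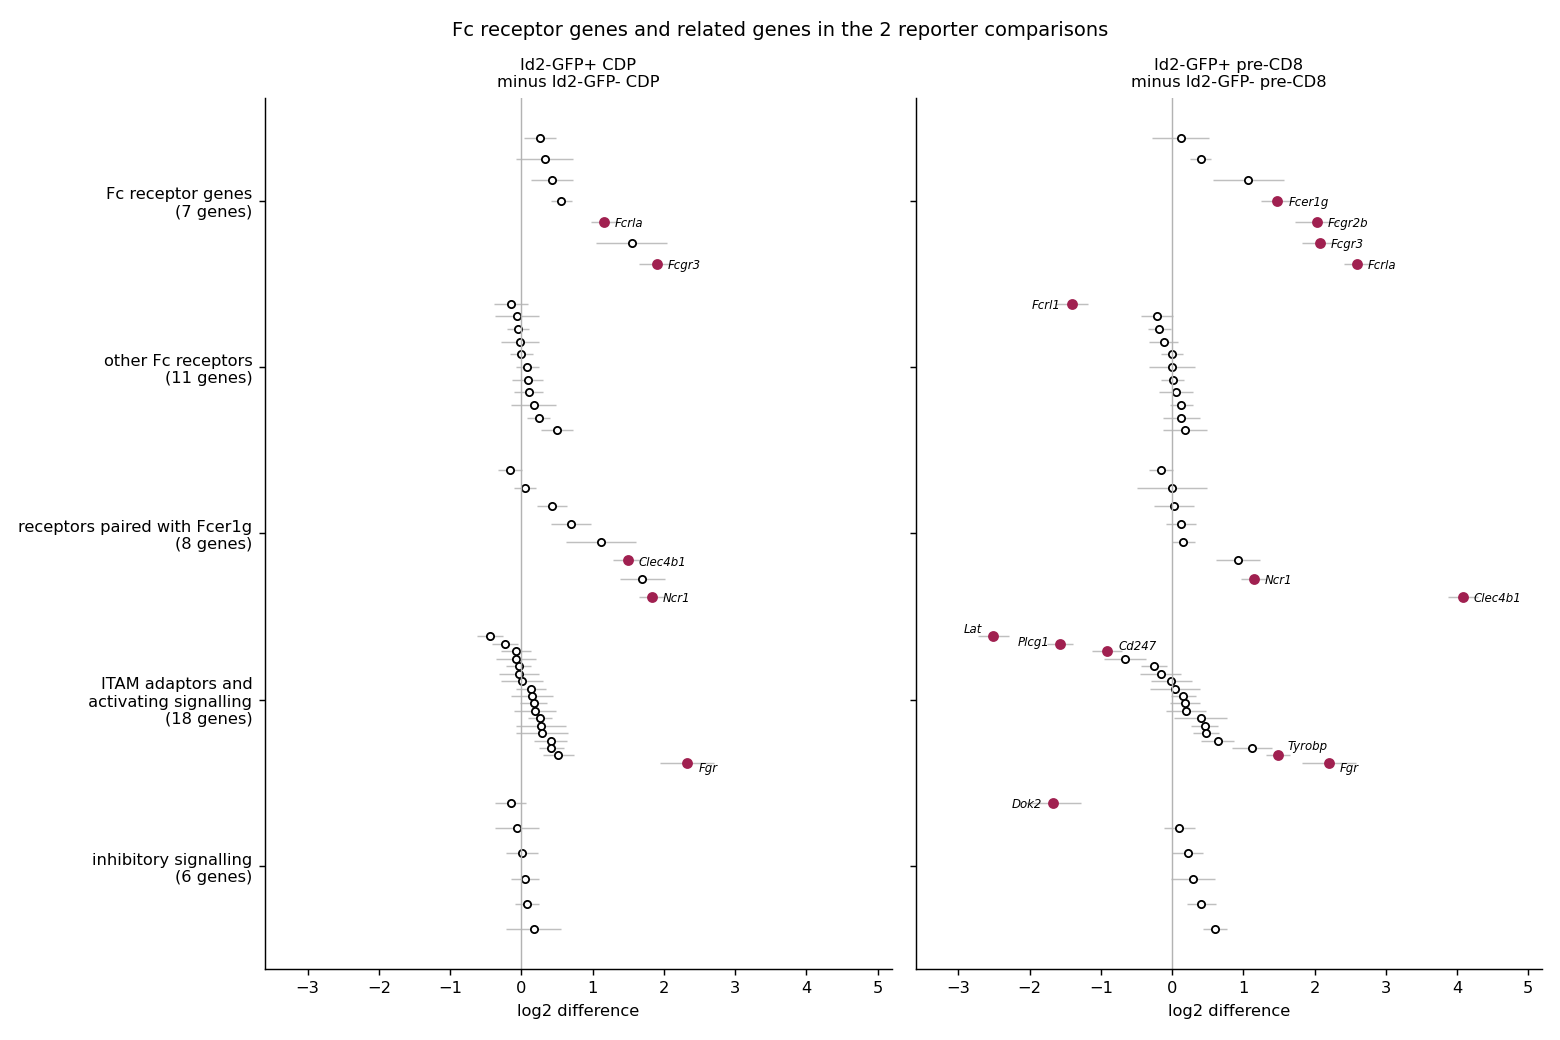
Log2 differences by reporter (x axis) in CDP (left) and pre-CD8 (right) for 7 Fc receptor genes and 4 related lists (rows), with SE bars and filled, named points past adjusted p = 0.05. The other Fc receptors lie near 0 apart from Fcrl1 in pre-CD8, while Clec4b1 reaches 4.08 there.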

How the data were processed

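The authors' deposited table gives linear intensity for 28853 probe sets. RMA and Affymetrix Expression Console are named in the submitters' processing notes, without a version. RMA can compress low values, and how far this changed the differences of dim genes was not tested. The design had assumed log2 values. The deposited intensities were therefore converted to log2 first and not normalised again. The annotation gave 1 symbol to 21789 probe sets, several to 1621 and none to 5443, which left 19938 genes. Samples were grouped by title. The test was limma 3.58.1 (R 4.3.3) with 4 group means, all 8 arrays in 1 fit, an intensity trend in the variance prior, two-sided p-values adjusted by Benjamini-Hochberg over all genes and a threshold of 0.05. The fit had 8.19 degrees of freedom, and precision is limited by the number of arrays. The script was tested on simulated data. Python 3.11.15 prepared tables and figures.

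Genes, gene lists and alternatives were chosen with earlier results of these data known. The rule for named genes took the 8 Fc receptor genes, Id2, Zbtb46 and B2m, the 3 genes most correlated with each receptor gene, and up to 3 genes per direction and list with the smallest p among those called. The correlated genes exclude predicted genes, olfactory and vomeronasal receptors, antigen receptor segments and small RNAs. Other genes named were markers from fixed lists, neighbours on the chromosome and genes with the promoter motif. Zbtb46 had group means of 5.81 and 7.02 for Id2-GFP- and Id2-GFP+ CDP, then 5.81 and 7.86 for Id2-GFP- and Id2-GFP+ pre-CD8. Alternatives were a further quantile normalization, the array set or the replicate number as a block, no trend, a filter on dim genes (log2 of 6 on at least 2 arrays), the mean of a gene's probe sets, a fit to the groups compared, and leaving out each array.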

Additional observations from a re-analysis of the deposited data

How the results depend on the processing

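Of 14 called differences of Fc receptor genes, all 14 stayed past the threshold with the array set as a block, the dim filter (which dropped Fcer1a), the mean of the probe sets or no trend. 12 stayed with a further quantile normalization or a fit to the groups compared, 10 with the replicate block and 9 to 12 without 1 array. In CDP, 2 genes were called by reporter, but 1 with quantile normalization or the compared groups alone, 4 with the array set as a block, 0 with the replicate block and 0 to 1 without 1 array. Between the Id2-GFP- groups, 2 became 4 with the array set as a block, 1 with the compared groups alone, 0 with the replicate block and 0 to 2 without 1 array. Between the Id2-GFP+ groups, 0 became 4 with the array set as a block. For Id2-GFP+ pre-CD8 against Id2-GFP- CDP, 1 became 2 with quantile normalization or 4 with the array set as a block, and for Id2-GFP- pre-CD8 against Id2-GFP+ CDP, 5 became 3 without either Id2-GFP- pre-CD8 array (3 to 5 without 1 array). For the change of the reporter difference between stages, 0 became 1 with quantile normalization or 3 with the array set as a block. The causes were not tested. Replicate numbers did not pair the samples, since deviations of replicate 1 from the group mean correlated at 0.69 to 0.71 between groups of like reporter and at -0.69 to -0.63 otherwise, and the crossed pairing is the array set. The replicate block moved no other count of calls past 1.5 times.

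Some differences that were not called changed sign when 1 array was left out. Fcer1a ranged from -0.02 to 0.67 in CDP by reporter, -0.33 to 0.56 in pre-CD8 by reporter, -0.55 to 0.31 between the Id2-GFP- groups, -0.77 to 0.11 between the Id2-GFP+ groups and -0.65 to 0.24 for the change between stages. Fcgr4 ranged from -0.80 to 0.14 between the Id2-GFP- groups and -1.16 to 0.21 for the change between stages, and Fcgr3 from -0.18 to 0.52 for that change. Fcgr2b ranged from -0.29 to 0.40 between the Id2-GFP+ groups. For Id2-GFP+ pre-CD8 against Id2-GFP- CDP, Fcgr1 ranged from -0.15 to 0.03 and Fcer1g from -0.03 to 0.31. Signal limits Fcer1a, Fcgr1 and Fcgr4, below the array median on 8, 7 and 7 arrays.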

Other observations

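Some genes of the related lists were higher in Id2-GFP- pre-CD8, where Fcgr2b, Fcgr3 and Fcer1g were lowest, than in Id2-GFP- CDP. Of 18 ITAM adaptor and activating signalling genes 2 rose and 1 fell, and 1 of 11 other Fc receptor genes, 1 of 6 inhibitory signalling genes and 1 of 7 B-lineage markers rose. Of all genes, 1.03% were called higher and 0.592% lower. Under the array set block 4 of the 18 rose and 3 fell, 1 of the 11 rose, 1 of the 6 rose and 1 fell, and 3 of the 7 rose. That block called 5.82% of all genes higher and 6.65% lower. Without a block, Lat rose by 3.18 (adjusted p = 0.00113), Fcrl1 by 2.26 (0.00352), Dok2 by 2.07 (0.0444) and Plcg1 by 0.96 (0.0429), on the log2 scale, while Tyrobp fell by 1.30 (0.0106). Of 4 genes used to define the CDP, Il7r, the interleukin 7 receptor of lymphoid progenitors, rose by 3.64 (adjusted p = 0.00117). Another of them, Csf1r, fell from a group mean of 11.04 to 9.10. Under the array set block 3 of these 4 rose and 1 fell. The 1 B-lineage marker called without a block was the factor Ebf1, which rose by 3.18 (adjusted p = 0.00396). Plcg1 was lost without any of the 8 arrays (adjusted p up to 0.307, without Id2-GFP- CDP replicate 1). Dok2 was lost when any array of pre-CD8 was left out (0.202 and 0.0893 for Id2-GFP-, 0.075 and 0.0747 for Id2-GFP+) or either array of Id2-GFP- CDP (0.0876 and 0.303). Tyrobp was lost without replicate 2 of Id2-GFP- CDP (0.117) or replicate 1 of Id2-GFP- pre-CD8 (0.0699).

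The reporter difference of 2 genes of the related lists also changed between stages, where 0.145% of all genes were called. They were 1 of 8 receptors that use the Fcer1g chain and 1 of 18 activating signalling genes. With the array set as a block, 1 of the 8 was called higher, and 3 of the 18 higher and 3 lower. That block called 4.09% of all genes higher and 3.40% lower. Without it, the reporter difference was larger in pre-CD8 than in CDP by 2.60 for Clec4b1 (adjusted p = 0.021) and changed by -3.03 for Lat (0.0183). Neither call held when arrays were left out, as Clec4b1 was lost without any of the 8 arrays (adjusted p from 0.0559 without Id2-GFP+ CDP replicate 1 to 0.0976 without Id2-GFP- CDP replicate 2), and Lat without any but Id2-GFP- pre-CD8 replicate 1 (0.053 to 0.0976).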
